A study of Homo sapiens with 2 samples.

Results

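The genes described here are the ZNF genes outside chromosome 19, that is, genes with a ZNF symbol and number whose probe group (transcript cluster) on the expression array carries an identifier of another chromosome. They were chosen by symbol, by chromosome and by level: a gene was kept where the mean log2 signal of both arrays was at or above 6.05, the level from which genes are called measured here. Among 234 such genes, 148 met this level. In all 9735 of 14526 named genes were measured. Each of the 148 had a single cluster, all were protein-coding in RefSeq, and the RefSeq chromosome of all 148 was that of the cluster identifier.

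RNA came from NUGC4, a human gastric cancer cell line, in 2 cultures with 1 array each. One culture was transfected with an siRNA against ANO5 (anoctamin 5, a membrane protein) and the other with a negative control siRNA, each at a final 20 nmol/l and 24 h after seeding. Both cultures had the same transfection reagent and medium with serum, and the ANO5 siRNA was a single commercial duplex, so effects of that duplex on other transcripts and effects of less ANO5 cannot be told apart. No source used here gives the time from transfection to harvest. With 1 array a group there is no spread between replicates, so no difference below has a standard error, a p-value or a replicate check, and fewer cells with a transcript and less transcript per cell cannot be told apart.

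ZNF symbols with a number are given mostly to proteins with C2H2 zinc fingers, short folds in which cysteines and histidines hold a zinc ion and neighbouring residues contact bases of DNA or, in some proteins, RNA. Many of these proteins also carry a KRAB domain, which recruits the scaffold protein TRIM28 and with it enzymes that place repressive chromatin marks, often on transposable elements. KRAB zinc finger genes arose by repeated tandem duplication and lie in clusters, the largest of them on chromosome 19. Outside chromosome 19 the name covers both such clustered genes and many single genes with older and more varied roles, among them transcription activators, subunits of corepressor complexes and factors of ribosome assembly.

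ANO5 had a log2 signal of 3.67 on the ANO5 siRNA array and 6.83 on the control siRNA array, a difference of -3.16 in the labelled direction, from a level below the measured range on average. The array medians over 17345 clusters were 7.68 with ANO5 siRNA and 7.69 with control siRNA. Of 14 epithelial and gastric marker genes with a value, 11 were measured. Of these 4 (36.4%) were higher by 1.5-fold and none lower, beside 23.2% and 20.1% of all measured genes. The summed linear signal over all 14 was 512184 on the ANO5 siRNA array and 397510 on the control siRNA array. The part of this gap in the results below was not tested. EPCAM (17.04 and 16.63) and KRT8 (17.37 and 17.06) were far above the threshold, whereas the stomach markers TFF1 (4.98 and 4.22), MUC6 (4.40 and 4.74) and CLDN18 (4.45 and 4.47) lay below the measured range, each pair given with ANO5 siRNA first. Of 10 markers of fibroblasts, endothelium and blood with a value, 4 were measured and none was past 1.5-fold. The measured 4 were COL1A2 (7.92 with ANO5 siRNA, 8.03 with control siRNA), VWF (7.66 and 7.14), CD68 (7.34 and 7.66) and HBA1 (6.30 and 6.14). The summed linear signal over all 10 was 818 with ANO5 siRNA and 816 with control siRNA. The pan-leukocyte gene PTPRC, among the unmeasured ones, stood at 3.49 and 3.68. No marker of either list was at 0, since the deposited scale has no zero.

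As a group the ZNF genes outside chromosome 19 were shifted slightly toward lower signal with ANO5 siRNA. Their median log2 difference, ANO5 siRNA minus control siRNA, was -0.115, with a middle spread (quartiles) of -0.55 to 0.27, against a median of 0.07 and quartiles of -0.43 to 0.54 over all 9735 measured genes. A 1.5-fold change, a fixed size used in place of a test, was reached by 18 members that were higher and by 37 that were lower. Higher by 1.5-fold were thus 12.2% of the members, beside 23.2% of all measured genes, and lower by 1.5-fold were 25.0% of the members, beside 20.1% of all measured genes. At 2-fold, 6 members (4.05%) were higher, beside 11.2% of all measured genes, and 17 (11.5%) were lower, beside 11.3%. The share lower by 2-fold was therefore near the background, that lower by 1.5-fold was a little above it, and the wider gap was in the shares that were higher. Their differences were also less spread out, with an SD over genes of 0.70, against 0.94 over all measured genes.

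**Figure D1:**
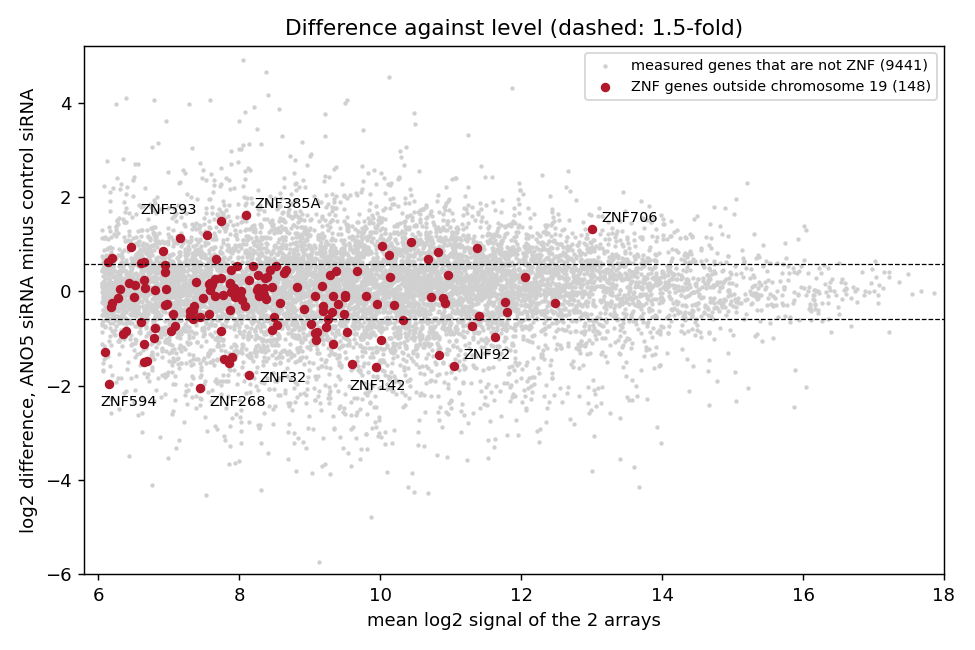
Log2 difference (ANO5 siRNA minus control siRNA, y axis) against the mean log2 signal of both arrays (x axis) for the 148 ZNF genes outside chromosome 19 (red) and the 9441 measured genes that are not ZNF genes (grey), with dashed lines at 1.5-fold. The red points lie between -2.06 and 1.62, inside the range of the grey points.

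The level rule takes the mean of both arrays, so a gene that is high on a single array can enter by it and a gene that is very low on a single array can fail it. Of the 148 members, 138 were at or above 6.05 on both arrays. A further 7 members were below 6.05 on the ANO5 siRNA array and 3 on the control siRNA array, and these 10 include ZNF594, ZNF589 and ZNF624, whose differences are given below. Just inside the rule lay ZNF691 (5.45 with ANO5 siRNA, 6.73 with control siRNA), ZNF18 (6.44 and 5.83) and ZNF594 (5.17 and 7.14). Just outside it lay ZNF391 (5.74 with ANO5 siRNA, 6.24 with control siRNA), ZNF646 (5.57 and 6.35) and ZNF200 (5.51 and 6.38). The 86 genes that failed the rule had a median difference of -0.08, with 9 (10.5%) higher and 18 (20.9%) lower by 1.5-fold. Without any filter, 11.5% of the 234 genes were higher and 23.5% lower by 1.5-fold, beside 18.6% and 16.6% of all 14526 named genes. By 2-fold, 3.42% of the 234 were higher and 9.83% lower, beside 8.33% and 8.35% of all named genes.

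The ZNF genes of chromosome 19, taken by the same level rule, were lower as a set by more. The median log2 difference was -0.115 for the 148 genes outside chromosome 19, and -0.35 for the 146 genes on it. Of the genes outside chromosome 19, 61 had a positive and 86 a negative difference, while on chromosome 19 these were 37 and 108. Over all 9735 measured genes they were 5263 and 4405. On chromosome 19, 3.42% were higher and 39.7% lower by 1.5-fold. The gap between both sets was not tested, since genes are not replicates. Of other zinc finger families, 27 ZBTB genes had a median of -0.17, 13 ZSCAN and ZKSCAN genes one of 0.11, and 10 ZFP genes one of -0.42.

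**Figure D2:**
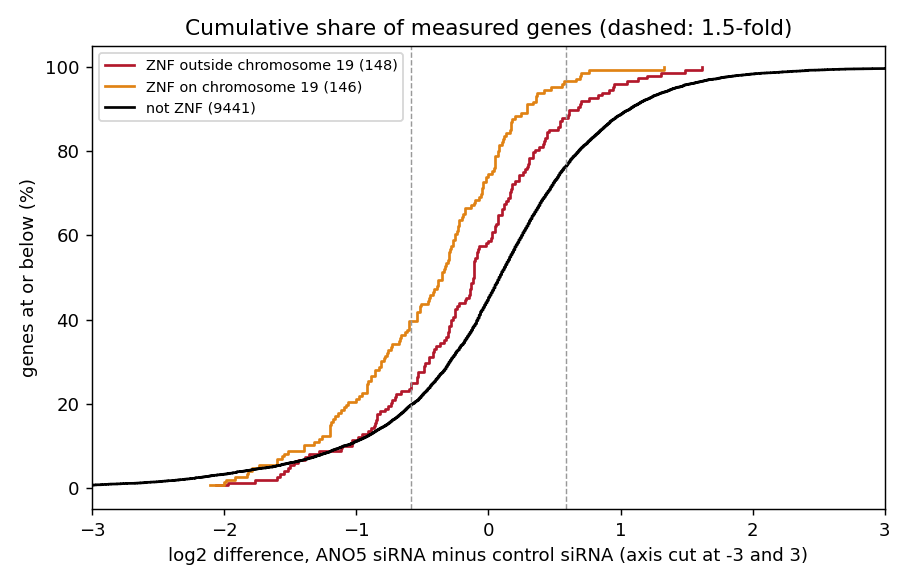
Cumulative share of genes (y axis, percent) at or below each log2 difference, ANO5 siRNA minus control siRNA (x axis, cut at -3 and 3), for the ZNF genes outside chromosome 19 (red), those on chromosome 19 (orange) and measured genes that are not ZNF genes (black). The red line lies between the orange and the black line at its median of -0.115, where the other medians are -0.35 and 0.08.

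The members' median was below that of genes that are not ZNF genes in each of 5 ranges of signal. In bins of mean log2 signal, the members' median was -0.12 in the bin from 6.05 to 7 (31 members), -0.11 from 7 to 8 (39), 0.03 from 8 to 9 (29), -0.42 from 9 to 10 (25) and -0.18 at 10 and over (24). Measured genes that are not ZNF genes had medians of 0.05, 0.055, 0.07, 0.08 and 0.11 in the same bins. Between 9 and 10 none of the 25 members was higher by 1.5-fold and 10 (40.0%) were lower. Of genes that are not ZNF genes in that bin, 26.2% were higher and 22.7% lower. At 10 and over 7 of 24 members (29.2%) were higher and 6 (25.0%) lower, beside 24.1% and 18.9% of genes that are not ZNF genes.

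Among single genes, the 12 lowest differences ran from -2.06 to -1.36. ZNF268 had the lowest of all members, with a log2 signal of 6.42 on the ANO5 siRNA array and 8.48 on the control siRNA array (4.17-fold lower). ZNF594 followed at 5.17 with ANO5 siRNA and 7.14 with control siRNA (3.92-fold lower), its first value being under the measured range, so that its fold may be limited by background. ZNF32 stood at 7.25 with ANO5 siRNA and 9.02 with control siRNA, 3.41-fold lower. These are moderate changes on this pair of arrays, because 297 measured genes, 3.05% of all, had a difference as low as that of ZNF268.

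ZNF142, in which inherited variants cause a neurodevelopmental disorder, was 3.03-fold lower (9.14 with ANO5 siRNA, 10.74 with control siRNA). ZNF92, ZNF680 and ZNF273, KRAB zinc finger genes that lie close together on chromosome 7, were 2.99-fold, 2.93-fold and 2.87-fold lower. ZNF589, known from blood stem cells, was 2.83-fold lower (5.90 with ANO5 siRNA, 7.40 with control siRNA), and ZNF624 2.77-fold lower (5.96 with ANO5 siRNA, 7.43 with control siRNA). For both of these genes the ANO5 siRNA value was under 6.05. ZNF620 (7.07 with ANO5 siRNA, 8.51 with control siRNA), ZNF184 (7.20 and 8.59) and ZNF267 (10.15 and 11.51) were 2.71-fold, 2.62-fold and 2.57-fold lower and completed the lowest 12.

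**Figure D3:**
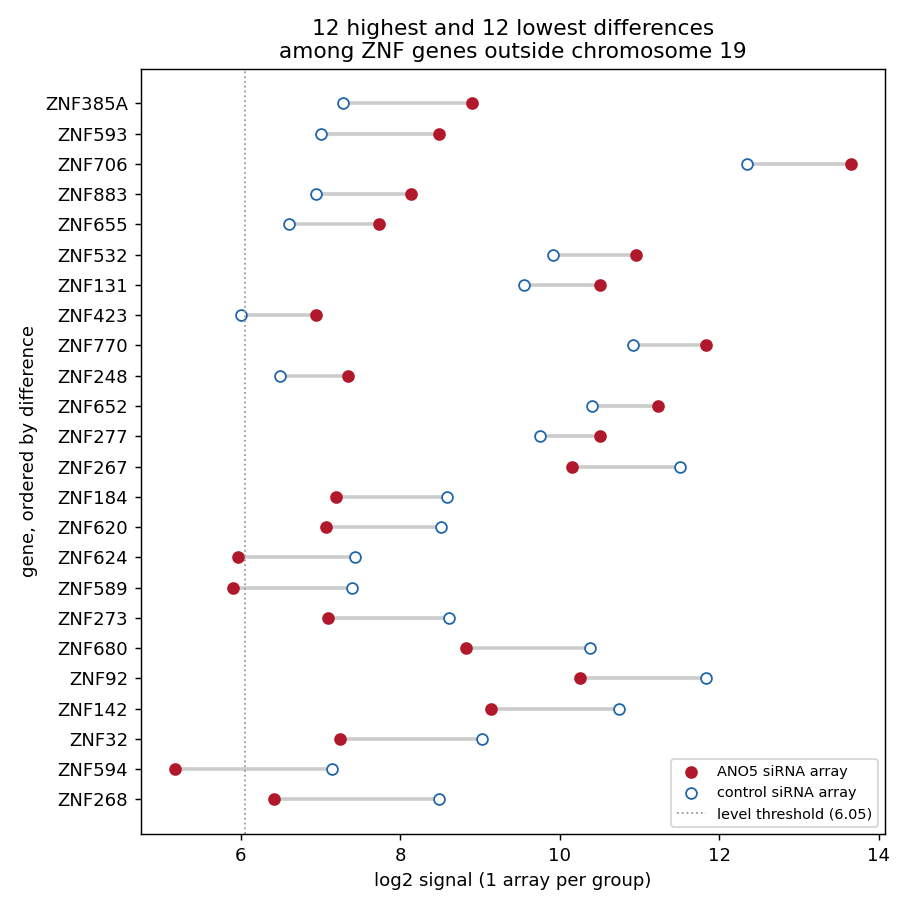
Log2 signal (x axis) of the 12 members with the highest and the 12 with the lowest difference, ordered by difference (y axis), on the ANO5 siRNA array (filled red) and on the control siRNA array (open blue), with the measured level of 6.05 dotted. ZNF385A at the top has 8.90 and 7.28, ZNF268 at the bottom with 6.42 and 8.48.

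The 12 highest differences ran from 0.76 to 1.62. ZNF385A, which encodes a p53-binding and RNA-binding zinc finger protein, had 8.90 with ANO5 siRNA and 7.28 with control siRNA (3.07-fold higher). A difference as high was found in 322 measured genes, or 3.31% of them. ZNF593, a nucleolar protein related to a yeast factor that helps export the large ribosomal subunit, had 8.49 with ANO5 siRNA and 7.0 with control siRNA (2.81-fold higher). ZNF706, a very small protein with a single zinc finger, had 13.66 with ANO5 siRNA and 12.35 with control siRNA (2.48-fold higher), both far above the measured threshold. ZNF883 was 2.30-fold higher (8.14 with ANO5 siRNA, 6.94 with control siRNA).

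ZNF655, whose product binds the signalling protein VAV1, was 2.19-fold higher, at 7.73 with ANO5 siRNA and 6.60 with control siRNA. ZNF532 was 2.07-fold higher (10.96 with ANO5 siRNA, 9.91 with control siRNA). Under 2-fold but over 1.5-fold came ZNF131, a BTB-domain transcription factor (log2 difference 0.95), ZNF423, a cofactor of SMAD and EBF factors (0.94), ZNF770 (0.91), ZNF248 (0.86), ZNF652, which recruits corepressors of the CBFA2T family (0.83), and ZNF277 (0.76). The control siRNA value of ZNF423, 6.0, lay under the measured threshold, beside 6.94 with ANO5 siRNA. The clusters with the highest mean signal, ZNF706, ZNF148 (12.36 with ANO5 siRNA, 12.61 with control siRNA) and ZNF217 (12.21 and 11.90), differed by 1.31, -0.25 and 0.31, though signals of different probe groups do not rank transcripts by amount.

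A group of related KRAB zinc finger genes on chromosome 7 was lower together. In RefSeq ZNF680, ZNF138 and ZNF273 follow each other with only ZNF107 between them, and ZNF92 lies further along the same chromosome arm. ZNF680 had 8.83 with ANO5 siRNA and 10.38 with control siRNA, a log2 difference of -1.55. ZNF138 had 9.49 with ANO5 siRNA and 10.52 with control siRNA, a difference of -1.03. ZNF273 had 7.09 with ANO5 siRNA and 8.61 with control siRNA, a difference of -1.52. ZNF92 had 10.26 with ANO5 siRNA and 11.84 with control siRNA, a difference of -1.58. All 4 were over 2-fold lower, while ZNF736 (5.72 with ANO5 siRNA, 5.78 with control siRNA), ZNF679 (4.51 and 4.68), ZNF735 (4.38 and 4.67) and ZNF727 (2.88 and 2.92), on the far side of ZNF680 in RefSeq, were below the measured range on both arrays. ZNF107 was not analysed here.

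The promoters of these genes are near copies of one another, and the same block stands before ZNF267 on chromosome 16 and, in part, before ZNF195 on chromosome 11. They are shown because these genes, picked for being lower, have related promoters. Each line gives 150 bases ending 50 bases after the gene's start, from RefSeq on GRCh38.p14 and read along the gene, with capitals for a block of 17 bases that begins 23 to 39 bases before the start.
ZNF92, ZNF680, ZNF273, ZNF138, ZNF267 and ZNF195 lie at chr7:65373755-65373904 on the plus strand, chr7:64563022-64563171 on the minus strand, chr7:64903173-64903322 on the plus strand, chr7:64794328-64794477 on the plus strand, chr16:31873707-31873856 on the plus strand and chr11:3379097-3379246 on the minus strand.
ZNF92: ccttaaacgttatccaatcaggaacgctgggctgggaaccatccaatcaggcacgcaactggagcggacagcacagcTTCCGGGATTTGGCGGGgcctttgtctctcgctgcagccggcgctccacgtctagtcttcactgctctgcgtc
ZNF680: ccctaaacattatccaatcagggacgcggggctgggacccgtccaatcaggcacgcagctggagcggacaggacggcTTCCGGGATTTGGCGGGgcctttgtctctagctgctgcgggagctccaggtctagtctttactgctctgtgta
ZNF273: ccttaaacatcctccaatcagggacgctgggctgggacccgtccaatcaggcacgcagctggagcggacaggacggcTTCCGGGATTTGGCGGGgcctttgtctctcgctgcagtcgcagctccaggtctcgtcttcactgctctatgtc
ZNF138: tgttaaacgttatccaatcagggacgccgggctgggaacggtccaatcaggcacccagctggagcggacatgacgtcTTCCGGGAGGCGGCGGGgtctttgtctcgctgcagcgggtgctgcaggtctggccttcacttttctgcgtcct
ZNF267: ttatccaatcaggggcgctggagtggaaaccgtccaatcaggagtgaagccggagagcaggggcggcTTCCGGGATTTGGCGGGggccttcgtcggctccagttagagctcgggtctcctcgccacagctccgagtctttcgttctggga
ZNF195: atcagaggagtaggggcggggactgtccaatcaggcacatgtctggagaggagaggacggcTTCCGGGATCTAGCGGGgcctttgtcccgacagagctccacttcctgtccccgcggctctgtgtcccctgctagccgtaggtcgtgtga

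The 17 bases were identical in ZNF92, ZNF680, ZNF273 and ZNF267. Counted from 1 at the 5′ end of the block, ZNF138 differed from these genes by T9G, T10G and T11C, and ZNF195 by T10C and G12A. Over the 150 bases, ZNF92 was 88.7% identical to ZNF680, 89.3% to ZNF273, 81.6% to ZNF138, 64.9% to ZNF267 and 55.2% to ZNF195. Ahead of the block 5 of the 6 windows held the letters CCAATCAG at 2 places, and that of ZNF195 at 1. In log2 difference the 4 genes with the identical block lay between -1.58 and -1.36. ZNF138 was at -1.03 and ZNF195 at -0.87 (9.09 with ANO5 siRNA, 9.96 with control siRNA). The genes and the block were chosen with these values known, and the windows also differ outside the block. Whether the block bears on the size of the difference was not tested.

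The block was chosen after the values of these genes were seen, so its count is a description and not a test. On either strand TTCCGGGATTTGGCGGG stood in 7 of 35116 RefSeq promoters of 300 bases (0.0199%), all of them of ZNF genes: the 4 members just named, ZNF107, ZNF724 and ZNF726. ZNF726, on chromosome 19, was below the measured range (4.6 with ANO5 siRNA, 5.17 with control siRNA), and ZNF724 was not analysed here. The block contains TTTGGCGG, one spelling of the sites bound by E2F factors, which stood in 0.652% of all promoters. Of the 130 members with a promoter sequence, the same 4 held TTTGGCGG. Of the 126 with neither the block nor these letters, 31 (24.6%) were also lower by 1.5-fold. Among measured genes that are not ZNF genes 27 of 100 holders of TTTGGCGG (27.0%) were lower by 1.5-fold, against 19.7% of 7779 without it. Holding these letters does not show that a factor binds there.

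Of 6 shorter motifs searched on both strands, the other E2F-type spellings were in few members, none of them lower by 1.5-fold. TTTGGCGC stood in 0.652% of all promoters and in 1 member with a difference of 0.95, and TTTCCCGC in 1.63% of all and in 4 members with a median difference of -0.06. Among measured genes that are not ZNF genes, 38.1% and 31.7% of holders of these 2 spellings were lower by 1.5-fold. Without them these shares were 19.5% and 19.3%. Among measured ZNF genes of chromosome 19 the shares for these 2 spellings went the other way. Of TTTGGCGC holders there, 0 of 7 were lower by 1.5-fold, against 42.4% without it. Of TTTCCCGC holders there, 1 of 3 was lower, against 40.2% without it. For TTTGGCGG on chromosome 19, 3 of 6 holders were lower, against 39.5% without it. The letters CCAATCAG, the core of a CCAAT box, stood in 3.97% of all promoters and in 16 members (12.3%), of which 8 were lower by 1.5-fold and 0 higher. The letters were taken from windows of genes already seen to be lower, so this count supports nothing by itself. Those 8 were the 6 genes printed above together with ZNF519 (6.09 with ANO5 siRNA, 7.21 with control siRNA) and ZNF678 (5.98 and 6.82), the second of which met the level rule only through the control siRNA array. Of the 10 holders outside the printed genes 2 (20%) were lower by 1.5-fold. Of the 114 members without it 23.7% were lower by 1.5-fold, and of measured genes that are not ZNF genes 26.2% with it and 19.3% without it were. Among ZNF genes of chromosome 19, 43.3% with it and 38.9% without it were lower. CTTCCGGG, an ETS-type motif that overlaps the block, stood in 3.90% of all promoters and in 24 members with a median of -0.26. TGACGTCA, a cyclic AMP response element, stood in 1.85% of all and in 5 members with a median of -0.59. Of these 5, 3 were lower and 1 higher by 1.5-fold, and 25.6% of members without it were lower. Among ZNF genes of chromosome 19, 6 of 8 holders of TGACGTCA were lower by 1.5-fold, against 37.6% without it. Among measured genes that are not ZNF genes 24.6% of holders were lower, against 19.6% without it. The ZNF holders are few, and whether TGACGTCA bears on the differences was not tested.

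Neighbouring members were alike in some runs and unlike in others. Runs were formed from members with at most 3 other protein-coding genes between them, which gave 6 runs of at least 3 members, 10 pairs and 101 members on their own. The chromosome 7 run of ZNF680, ZNF138 and ZNF273 had the lowest median, -1.52, with differences spanning 0.52. On chromosome 12, ZNF26 (-0.85), ZNF84 (-1.03) and ZNF268 (-2.06) were lower, but ZNF605 (0.07) and ZNF140 (0.03) between and beside them were not. On chromosome 10, ZNF248 (0.86) and ZNF33A (-0.89) differed in opposite directions with ZNF37A (-0.13) and ZNF33B (0.16) next to them. The chromosome 7 run of ZNF789, ZNF394 and ZNF655 had the highest median, 0.13, which rested on differences of 0.13, -0.37 and 1.13.

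In the runs of 6 members, 1 member was past 1.5-fold, ZNF48. The 6 members ZNF786, ZNF398, ZNF282, ZNF212, ZNF777 and ZNF746 of chromosome 7 lay between -0.24 and 0.44, and the 6 members from ZNF48 to ZNF689 on chromosome 16 between -0.74 and 0.18. In runs of at least 3 the median was -0.13, with 2 of 27 members (7.41%) higher and 8 (29.6%) lower by 1.5-fold. For members on their own the median was -0.12, with 16 of 101 (15.8%) higher and 24 (23.8%) lower. Of all measured genes 23.2% were higher and 20.1% lower. Of the 10 pairs 5 had differences of the same sign and 5 of opposite sign, and the gap within a pair ran from 0.10 to 2.23 with a median of 0.625. ZNF620 (-1.44) and ZNF621 (-0.70) on chromosome 3 were both lower and ZNF75A (0.28) and ZNF174 (0.53) on chromosome 16 both positive, while ZNF32 (-1.77) stood beside ZNF485 (0.46) on chromosome 10. ZNF326 (-0.96) and ZNF644 (0.31) on chromosome 1 also went opposite ways.

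**Figure D4:**
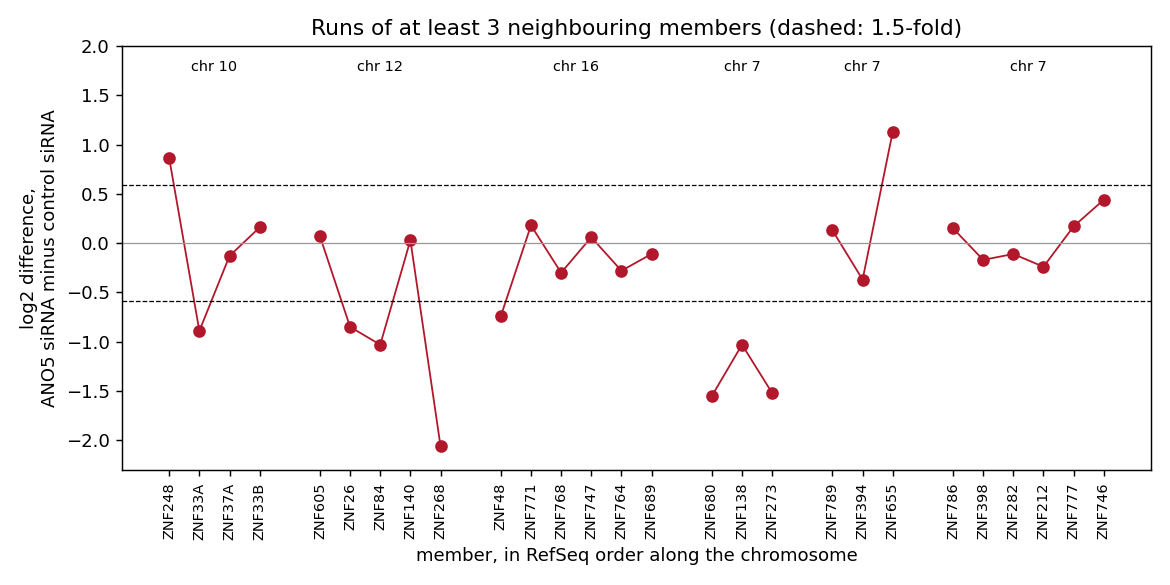
Log2 difference (ANO5 siRNA minus control siRNA, y axis) of the members of each run of at least 3 neighbouring ZNF genes, in RefSeq order (x axis) and labelled by chromosome, with dashed lines at 1.5-fold. The 3 members of the first chromosome 7 run from the left (ZNF680, ZNF138 and ZNF273) lie between -1.55 and -1.03, all below the lower dashed line. Each other run has members within 1.5-fold.

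Of 4 pairs of members that share a number and differ by a letter, ZNF33A and ZNF33B were the pair with a member past 1.5-fold. ZNF33A stood at 8.63 with ANO5 siRNA and 9.52 with control siRNA, and ZNF33B at 7.95 with ANO5 siRNA and 7.79 with control siRNA. ZNF280C and ZNF280D differed by -0.13 and 0.23, ZNF518A and ZNF518B by 0.38 and 0.07, and ZNF75A and ZNF75D by 0.28 and 0.56. Near copies may share signal on an array, and no source used here says how far the probes tell them apart, so differences of the chromosome 7 relatives and of such pairs are less certain than those of single genes.

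Members lay on 20 chromosomes, of which 14 held at least 5. Chromosome 3 had the lowest median of these, -0.76 over 9 members, beside 0.06 over the 540 other measured genes of that chromosome. Lower by 1.5-fold were 6 of the 9, namely ZNF589, ZNF620, ZNF35 (5.90 with ANO5 siRNA, 6.81 with control siRNA), ZNF860 (8.06 and 8.88), ZNF717 (8.85 and 9.61) and ZNF621 (8.67 and 9.37), beside 19.8% of the other genes there. ZNF445 (-0.31) and ZNF148 (-0.25) were within 1.5-fold, and ZNF639 (0.34) was the one chromosome 3 member with a positive difference. ZNF589 and ZNF35 were under 6.05 with ANO5 siRNA and met the level rule only through the control siRNA array. Among the 7 chromosome 3 members at or above 6.05 on both arrays, a setting added after seeing the data, 4 were lower by 1.5-fold and the median was -0.70. The gap to the other genes of the chromosome was not tested.

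Chromosome 9 had the highest median of the 14. Its 6 members all had positive differences, with a median of 0.235, beside 0.11 over 386 other genes. Of all 9735 measured genes, 5263 had a positive difference. ZNF883 (1.20) and ZNF510 (0.70) were past 1.5-fold, and ZNF189 (0.35), ZNF618 (0.12), ZNF462 (0.10) and ZNF79 (0.05) were not. Higher by 1.5-fold were thus 33.3% of the members, beside 24.4% of the other genes there. ZNF510 had 6.55 with ANO5 siRNA and 5.85 with control siRNA, so it met the level rule only through the ANO5 siRNA array. Among the 5 members at or above 6.05 on both arrays the median was 0.12, close to that of the other genes. One more gene of this chromosome, ZNF367, failed the level rule because of its own difference: it had 4.27 with ANO5 siRNA and 6.83 with control siRNA, and its difference of -2.56 was the lowest of all 234 ZNF genes outside chromosome 19. The statement on chromosome 9 thus holds for its 6 members, rests on ZNF510 for its median and does not cover all its ZNF genes.

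Of the other chromosomes, chromosome 7, with 19 members, had a median of -0.17 and a range of -1.58 to 1.13, and chromosome 16, with 17 members, a median of -0.02 and a range of -1.36 to 0.94. On the X chromosome all 7 members were within 1.5-fold, from -0.54 to 0.56. Of the other measured genes there, 21.4% were higher and 19.2% lower by 1.5-fold. On chromosome 11, ZNF195, ZNF143, ZNF215 (-0.54) and ZNF408 (-0.45) were negative and ZNF202 (0.10) positive, giving a median of -0.54. The 3 members of chromosome 14 lay between -0.15 and -0.11.

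**Figure D5:**
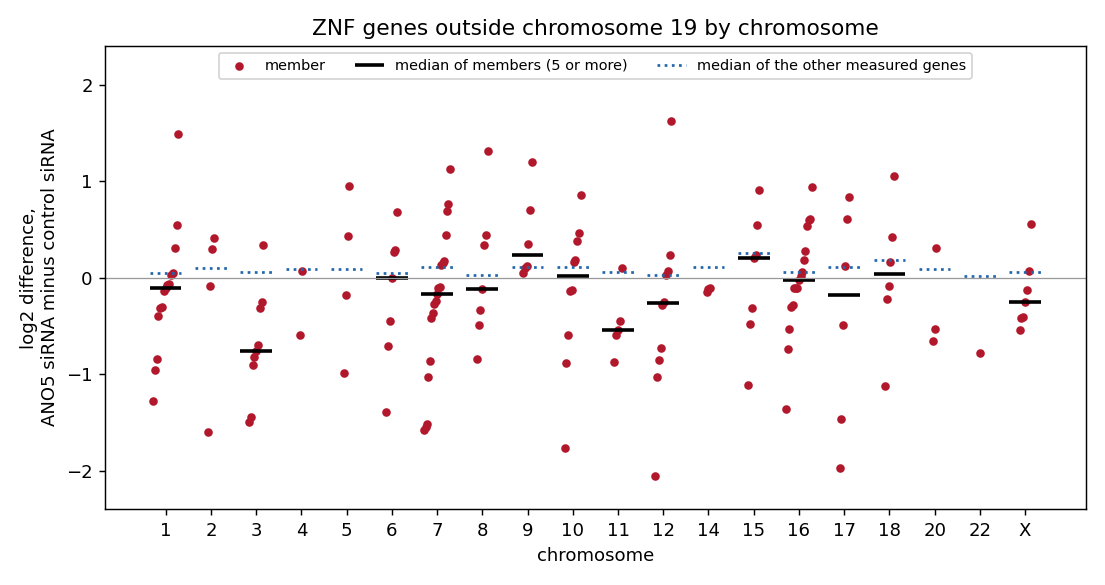
Log2 difference (ANO5 siRNA minus control siRNA, y axis) of each of the 148 members by chromosome (x axis), with the median of the members (black bar, 5 members or more) and of the other measured genes of that chromosome (dotted blue lines). The black bar of chromosome 3 lies at -0.76 and that of chromosome 9 at 0.235, while the dotted lines lie between 0.02 and 0.25.

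By role, genes whose products act on RNA or ribosomes differed both ways. Of 7 such members 1 (14.3%) was higher and 2 (28.6%) lower by 1.5-fold, with a median of -0.18, beside 23.2% higher and 20.1% lower of all measured genes. ZNF593 is described above. ZNF326, a subunit of a complex that couples RNA polymerase II elongation to splicing, was 1.95-fold lower (11.15 with ANO5 siRNA, 12.11 with control siRNA). ZNF330, a nucleolar protein, was 1.51-fold lower (8.97 with ANO5 siRNA, 9.56 with control siRNA), close to the threshold. ZNF622, which takes part in late maturation of the large ribosomal subunit, differed by 0.43, ZNF638, an RNA-binding and chromatin-silencing protein, by 0.30, ZNF346, which binds RNA duplexes, by -0.18, and ZNF106, an RNA-binding protein, by -0.32.

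Of partners of chromatin complexes 8 of 10 measured members were within 1.5-fold, beside 62.8% of all 148 members and 56.7% of all measured genes, and their median was 0.00. The 2 exceptions belong to one trio. ZNF592, ZNF687 and ZNF532 are related proteins that assemble with the chromatin reader ZMYND8. ZNF592 was 2.16-fold lower (8.77 with ANO5 siRNA, 9.88 with control siRNA), ZNF687 differed by -0.40 (7.67 and 8.07), and ZNF532 was 2.07-fold higher. The trio thus spanned both directions. The others were ZNF217, an amplified cancer gene that recruits the LSD1 and CoREST corepressors (0.31), ZNF644, a partner of the histone methyltransferases EHMT1 and EHMT2 (0.31), ZNF518A (0.38), ZNF518B (0.07), the SUMO ligase ZNF451 (-0.45, and -0.59 after loess, past 1.5-fold), ZNF711, which brings the demethylase PHF8 to promoters (-0.41), and ZNF496 (-0.07).

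Factors that act on promoters and enhancers had a median of -0.15 over 11 members, with 1 (9.09%) higher and 2 (18.2%) lower by 1.5-fold, shares of a few genes that lie near or below the background. ZNF143, an activator of many housekeeping and small nuclear RNA promoters, was 1.52-fold lower (10.03 with ANO5 siRNA, 10.63 with control siRNA), while its paralog ZNF76 differed by 0.26 (7.78 and 7.52). ZNF395 was 1.79-fold lower (7.32 with ANO5 siRNA, 8.16 with control siRNA), and ZNF652 1.78-fold higher. The paralogs ZNF148 and ZNF281, which bind GC-rich elements, differed by -0.25 and -0.11. ZNF410, an activator of CHD4, differed by -0.15, ZNF609 by -0.48, ZNF24 by -0.22, ZNF219 by -0.12 and ZNF202, a repressor of lipid metabolism genes, by 0.10.

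Of 11 genes listed for development and differentiation that are in the table, 5 were measured, with a median of 0.10. Of these 1 (20.0%) was higher and none lower by 1.5-fold, beside 23.2% and 20.1% of all measured genes. ZNF423 was 1.92-fold higher, and ZNF292 (0.00), ZNF462 (0.10), ZNF503 (0.18) and ZNF445, a KRAB protein that guards genomic imprints (-0.31), were within 1.5-fold. Genes listed for DNA damage and replication had a median of 0.12 over 6 measured members. Of these ZNF385A and ZNF131 (33.3%) were higher and ZNF143 (16.7%) lower by 1.5-fold, beside 23.2% and 20.1% of all measured genes. ZNF830 and ZNF618, a partner of UHRF2, each differed by 0.12, and ZNF280C by -0.13. This list also holds ZNF367, which the level rule left out, and ZNF143 was counted in it as well as among promoter factors.

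The machinery that KRAB proteins use was measured for 22 of 23 genes in the table, with a median of -0.035, 3 higher and 6 lower by 1.5-fold, or 13.6% higher and 27.3% lower beside 23.2% and 20.1% of all measured genes. TRIM28, the scaffold that KRAB domains bind, had 12.59 with ANO5 siRNA and 13.52 with control siRNA (1.91-fold lower). CBX1, a heterochromatin protein that TRIM28 recruits, had 10.14 with ANO5 siRNA and 11.99 with control siRNA (3.61-fold lower). UHRF1 and DNMT1, which maintain DNA methylation after replication, were 7.57-fold lower (8.12 with ANO5 siRNA, 11.04 with control siRNA) and 2.30-fold lower (7.70 and 8.90). EHMT2, a histone methyltransferase, was 1.92-fold lower (9.74 with ANO5 siRNA, 10.68 with control siRNA), and MORC2, which acts with the HUSH complex, 1.55-fold lower (7.49 and 8.12).

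The 3 higher genes were DNMT3A, which places new DNA methylation (9.57 with ANO5 siRNA, 8.10 with control siRNA, 2.77-fold higher), RESF1, a partner of SETDB1 (2.36-fold higher), and EHMT1, the partner of EHMT2 (10.69 with ANO5 siRNA, 9.46 with control siRNA, 2.35-fold higher). SETDB1, the histone methyltransferase that TRIM28 brings in, differed by -0.31, and TASOR, PPHLN1 and MPHOSPH8 of the HUSH silencing complex by 0.19, 0.19 and -0.17. The list thus held changes in both directions while its median was near 0.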

How the data were processed

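Total RNA labelled with biotin was measured on 1 array for each of 2 cultures, per the labels' protocols. The deposited table holds 1 value per array and cluster, with 2 decimals and a range of 2.13 to 18.15 which is why these deposited values were taken to be on a log2 scale. Agilent Feature Extraction 12.0.3.1 is the tool in the submitters' processing notes, although the cluster identifiers have another maker's form. No source used here states the background correction, normalization or build, so cluster coordinates are left out. The arrays' 75th percentiles differed by 0.02, so values were used as deposited.

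Gene names came from the platform annotation, which gives 1 symbol to 14544 clusters and none to 2801. The cluster with the highest mean was kept for the 16 genes with several. The members and lists were chosen with earlier results of these data known. Named were the 12 highest and 12 lowest differences, measured members of the role lists, neighbouring runs and genes at the level threshold. RefSeq genes and promoters (GRCh38.p14) were matched by Entrez identifier, for 148 and 130 members. Motifs were matched exactly. The code for selection, counting and scaling was run on simulated data with large planted shifts and little noise. That run does not bear on the precision of the values here. Alternatives were 4 scalings, 3 filters, another choice of cluster, a pseudocount of 32 and a symbol filter. Python 3.11.15, numpy 2.4.6, pandas 2.3.3 and statsmodels 0.14.6 were used. The number of arrays limits the precision.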

Additional observations from a re-analysis of the deposited data

How the results depend on the processing

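The median difference of the ZNF genes outside chromosome 19 stayed negative under all alternatives run, between -0.18 (loess on the mean level, span 0.4) and -0.10 (32 added to the linear signal). Another choice of cluster and the symbol filter could not change it, since each member had a single cluster and none had an antisense or pseudogene symbol. Median centring left it at -0.115. Keeping genes with a mean at or above the 50th percentile of named genes left 78 members, of which 8 were higher and 19 lower by 1.5-fold, and 3 higher and 8 lower by 2-fold, because fewer genes were counted. With both arrays at or above 6.05 these counts were 15, 31, 6 and 13. Loess gave 15 higher and 41 lower members by 1.5-fold, or 10.1% and 27.7%, beside 19.7% and 22.6% of all measured genes. Loess also moved the median of all measured genes from 0.07 to -0.015. The members' median minus that of all measured genes was -0.17 under loess and -0.185 with values as deposited, so the gap did not widen. Of 232 values of 58 named members under 4 scalings, 18 moved by 0.1 or more on the log2 scale, all under loess, and 0 called members changed direction. ZNF143 moved to -0.72, ZNF131 to 0.84 and ZNF451 to -0.59. No paired analysis was possible because each group has 1 array, and for the same reason no replicate could be left out. The comparison by protein domain was not run, since no protein sequences were used here. Signal over background is unknown, as no detection call was used, so folds that rest on a value under 6.05 may be limited by background.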

Other observations

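Promoter base composition differed along with direction among the members. The median G+C content of the RefSeq promoters (250 bases before to 50 after the start) was 69.8% for 16 members higher by 1.5-fold, 60% for 35 lower by 1.5-fold and 63.3% for 79 within 1.5-fold. The median number of CpG dinucleotides was 29.25, 20 and 25 in the same order. Measured genes that are not ZNF genes showed a smaller gap in G+C content, with 65.7% for 1859 higher, 64.3% for 1556 lower and 65.0% for 4464 within 1.5-fold. Their median number of CpG dinucleotides was 25, 26 and 26 in the same order, so the CpG gap of the members was not seen there. The 6 promoters with the related block are among those of the lower members and share their ancestry, so these values are not independent. Probe composition was not analysed here, and its part in this pattern was not tested.

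Among the 86 ZNF genes outside chromosome 19 that failed the level rule, 6 (6.98%) were lower and 2 (2.33%) higher by 2-fold. Of all named genes without a filter, 8.35% were lower and 8.33% higher. The lower ones were ZNF367, ZNF718 (5.05 with ANO5 siRNA, 6.62 with control siRNA), ZNF2 (4.92 and 6.45), ZNF239 (5.11 and 6.43), ZNF182 (4.96 and 6.12) and ZNF354A (5.19 and 6.30). The higher ones were ZNF516 (5.85 with ANO5 siRNA, 4.69 with control siRNA) and ZNF425 (5.42 and 4.39). Members were also divided by the number of other ZNF genes near them in RefSeq, with at most 3 other protein-coding genes between. Higher by 1.5-fold were 3.23% of 31 members with 3 or more such neighbours, 9.09% of 33 with 1 or 2 and 16.7% of 84 with none, beside 23.2% of all measured genes. Lower by 1.5-fold were 29.0%, 30.3% and 21.4% of the same classes, beside 20.1%.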
